A study of Mus musculus with 6 samples.

Results

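The axon guidance ligands and receptors of the sympathetic stellate ganglion were taken by gene symbol from a mouse expression array: semaphorins of classes 3 to 7, ephrins, Slits and netrins on the ligand side, and plexins, neuropilins, Eph receptors, Robo receptors, Dcc and the Unc5 receptors on the receptor side. The symbols matched 69 genes with 152 probe sets, out of 18194 genes and 45101 probe sets on the array. One of the 69, Plxna4os1, is an antisense gene beside Plxna4 and encodes no receptor. A mean log2 intensity of 4 or more over the 6 arrays was required for testing, which 38 of the 69 genes and 60 of their probe sets reached. For each gene the probe set with the highest mean is given unless stated otherwise, and all levels below are log2 intensities.

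The ganglia came from male C57/Bl6 mice 8 weeks after surgery, 3 with a sham operation and 3 with transverse aortic constriction (TAC), a band around the aorta that loads the left ventricle with pressure. No genotype other than the strain and no drug is given in the labels, and the age of the mice is not given either. Each array carries RNA pooled from the left and right ganglion of 1 mouse, and arrays are named here by group and by the letter of their title, as in sham A; where 3 values of a group are given, they stand in the order A, B, C. The comparison asks whether lasting pressure overload of the heart goes with a different guidance gene profile in the ganglia that innervate it.

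Guidance cues are secreted or membrane-bound proteins that growing axons read through receptors on the growth cone. Class 3 semaphorins act through neuropilins and plexins, ephrins through Eph receptor tyrosine kinases, Slits through Robo receptors, and netrins through Dcc, mostly as attractants, and through Unc5 receptors, as repellents. In the sympathetic system, semaphorin 3A is known to shape where nerve fibres grow into the heart, and several of these proteins also act in blood vessels and glia.

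The tissue carried the defining transcripts of sympathetic neurons in both groups, with Th at 13.59 in sham and 13.84 in TAC, Dbh at 13.86 and 13.89, and Hand2 at 12.47 and 12.45. Of the 14 sympathetic neuron markers, 4 (Th, Chrna3, Snap25 and Slc18a2) were higher in TAC at an unadjusted limma p under 0.05 with groups that did not overlap, 28.6% against 5.43% and 8.78% of all genes. The markers did not move as 1, as 8 had a higher and 6 a lower mean, with a median of 0.02 beside 0.02 over all genes. On array TAC B, 6 of the 14 lay below and 5 above every sham array. The 14 markers' intensities summed to 131013 to 138484 in sham and 136431 to 141181 in TAC, and their part in the members' values was not tested. The array TAC B correlated least with the others (mean correlation 0.984, against 0.987 to 0.990 for the other 5 arrays). On it, 7 of the 10 tested markers of satellite glia and Schwann cells lay below every sham array, while Pmp22 lay above and Sox10 and Erbb3 within the sham range. Of the vessel markers, 3 of 5 endothelial ones lay above every sham array and 1 below, and 6 of 7 mural ones above and 1, Cspg4, below. The intensities of the 10 glial markers summed to 26538 to 28711 on the sham arrays and to 26271, 19659 and 25259 on TAC A, B and C, of which Fabp7 alone made up 14228 to 17367 in sham and 8830 on TAC B. Those of the 5 tested endothelial markers, of 9 on the array, summed to 391 to 455 in sham and 423, 520 and 465 in TAC, while Pecam1, Cdh5, Tek and Tie1 were under the floor. Those of the 7 tested mural cell markers of 10 summed to 3385 to 3447 in sham and 3713, 4850 and 4230 in TAC. Sham C held the highest muscle and fat markers, with the 3 tested white fat markers of 7 summing to 8095. The 5 tested skeletal muscle markers of 12 summed to 763, 53 and 1404 in sham and to 263, 71 and 69 in TAC. All 5 had a lower mean in TAC, with a median of -1.91, but 0 of them had an unadjusted limma p under 0.05. TAC B came next for fat, with white fat markers at 5213 (1563 to 2210 on the other 4 arrays) and the 5 tested brown fat markers of 6 at 805 (425 to 517 on those 4, and 1635 on sham C). In RNA from whole ganglia, fewer cells of a type and less RNA per cell cannot be told apart.

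No guidance gene passed the test. With limma and Benjamini-Hochberg adjustment over all 17550 probe sets, 0 of the 38 genes were called, as were 0% of all probe sets, and the smallest adjusted p of a member was 0.516. At an unadjusted p under 0.05 there were 4 members, Robo1, Efnb2, Epha5 and Sema4d, each with a lower mean after TAC. That is 10.5% of the members on the lower side, against 3.32% of the 9955 genes tested, and 0 members on the higher side, against 5.43% of all genes. The count of 4 was 6 without TAC A, 2 without sham B, 1 without sham C, TAC B or TAC C (Robo1 each time), and 0 without sham A, while the share of all genes was 2.24% to 3.88% in these comparisons.

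The TAC arrays lay entirely below the sham arrays for 7 members, the same 4 and Sema3c, Ephb3 and Unc5b. This is 18.4% of the members, against 9.09% of all genes, and 0 members lay entirely above, against 8.78% of all genes. With 3 mice against 3, the exact two-sided permutation test gave these 7 members p = 0.1, the smallest value it allows. One of them, Ephb3, reached the floor of 4 through its sham arrays (mean 4.28, against 3.86 in TAC), so its place in this count is not independent of its difference. With a floor of 6, 5 of 26 members lay entirely below, against 8.32% of all genes. Of the 38 members, 27 had a lower and 11 a higher mean after TAC. The median difference was -0.05, beside 0.02 over all genes tested, of which 45% had a lower mean. Among the receptors 17 of 20 had a lower mean, with a median of -0.07, and among the ligands and transmembrane semaphorins 10 of 18, with a median of -0.03.

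**Figure D1:**
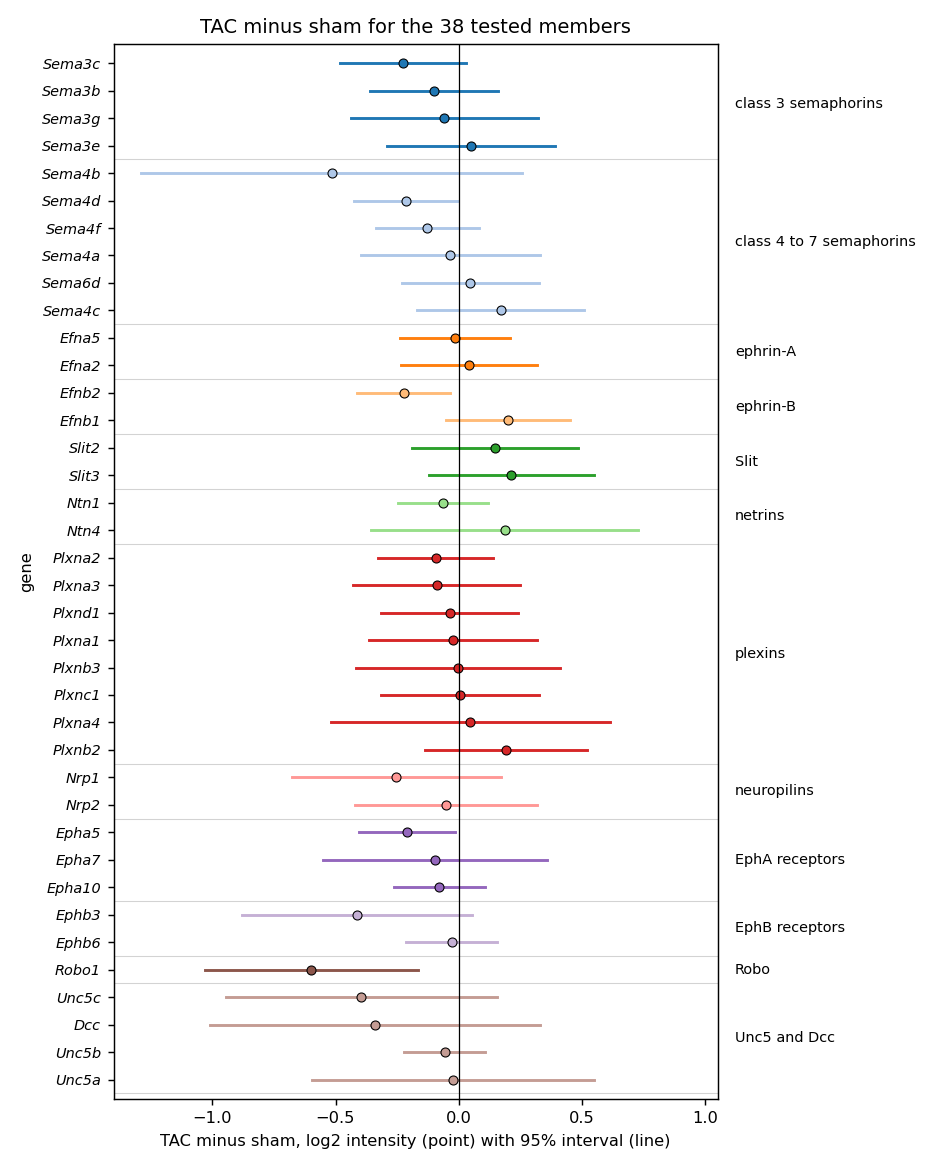
TAC minus sham difference in log2 intensity (x axis) of the 38 tested genes (y axis), grouped by family, with the 95% interval of limma's moderated estimate from 3 sham and 3 TAC arrays. The intervals of Robo1, Efnb2, Epha5 and Sema4d lie below 0, and none lies above 0.

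The precision bounds what could have been missed in the measured intensities of the 38 tested genes. For 6 of them the mean was under 5, where processing can compress values near background. Each interval is for 1 gene and is not adjusted over the 38. The standard error of a member's difference was 0.07 to 0.32, with a median of 0.14. For 29 of the 38 genes the 95% interval lay within 0.58 of 0 on either side, a change of about 1.5-fold. The intervals of Sema4b, Ephb3, Nrp1, Robo1, Unc5c, Dcc and Unc5a reached beyond -0.58, and those of Ntn4 and Plxna4 beyond 0.58.

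Robo1, a transmembrane receptor for Slit ligands, had the largest difference of the 38. It measured 7.39, 7.06 and 7.11 in sham and 6.80, 6.22 and 6.74 in TAC. Every TAC array lay below every sham array, and TAC B was the lowest by a wide margin. The means were 7.19 ± 0.17 in sham and 6.59 ± 0.32 in TAC (SD, n = 3), a difference of -0.60 (SE 0.18), or 1.51-fold lower, with a 95% interval of -1.03 to -0.17 and adjusted p = 0.516 by limma. Without TAC B the difference was -0.41. Over 16 alternatives the difference of Robo1 was -0.70 to -0.41. As its groups did not overlap, leaving out or weighting arrays could not turn its sign. The unadjusted limma p was under 0.05 in 14 of the 16. The exceptions were a skeletal muscle score as covariate and the comparison without sham A. Its adjusted p over these alternatives was 0.238 to 0.824. Of the other Robo genes, Robo2, Robo3 and Robo4 were under the floor, and so were the 2 further probe sets of Robo1.

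Ephrin-B2 (Efnb2), a membrane-anchored ligand of EphB receptors that also marks arterial endothelium, measured 6.52, 6.39 and 6.47 in sham and 6.31, 6.21 and 6.20 in TAC. The 3 TAC arrays lay close together just under the sham range. The difference was -0.22 (SE 0.08, adjusted p = 0.542), or 1.17-fold lower, with a 95% interval of -0.41 to -0.04. Its other tested probe set differed by -0.24 (SE 0.13) and its groups overlapped.

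EphA5 (Epha5), a receptor tyrosine kinase for ephrin-A ligands, measured 10.25, 10.18 and 10.16 in sham and 10.08, 9.91 and 9.98 in TAC. The groups were apart by less than 0.1 between the lowest sham and the highest TAC array. The difference was -0.21 (SE 0.08, adjusted p = 0.545), or 1.16-fold lower, with a 95% interval of -0.40 to -0.02. Of its other 3 tested probe sets, those at -0.42 (SE 0.22) and -0.25 (SE 0.17) had the same direction and the dimmest was at 0.03 (SE 0.16), none with groups apart.

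Sema4d, a transmembrane semaphorin that signals through plexin-B receptors, measured 9.33, 9.41 and 9.28 in sham and 9.24, 9.03 and 9.13 in TAC. Only a small step separated sham C from TAC A. The difference was -0.21 (SE 0.09, adjusted p = 0.548), with the upper end of the 95% interval at -0.0024. Without TAC B the difference was -0.16 for Sema4d, -0.17 for Epha5 and -0.21 for Efnb2, none of them then at an unadjusted p under 0.05. Efnb2, Epha5 and Sema4d each had an unadjusted limma p under 0.05 in 7 of 16 alternatives. Their means were lower in all 16, but with groups that did not overlap, leaving out or weighting arrays could not turn the sign.

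**Figure D2:**
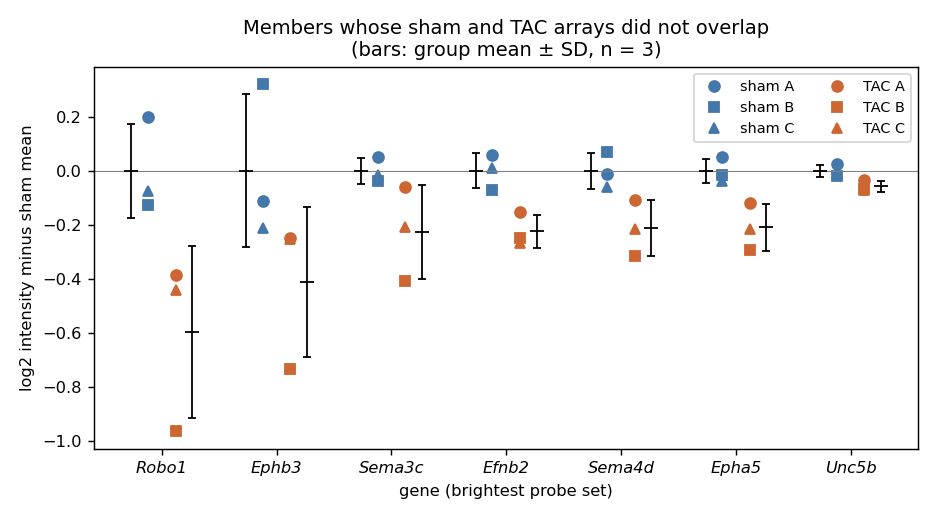
Log2 intensity minus the gene's sham mean (y axis) on each of the 6 arrays for the 7 genes (x axis) whose groups did not overlap, with group means and SD (n = 3). The TAC points lie under the sham points for each gene, Robo1 has the widest gap between means (-0.60) and TAC B is the lowest array for Robo1, Ephb3, Sema3c, Sema4d and Epha5.

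The 250 bases before the annotated starts of Robo1, Efnb2, Epha5 and Sema4d are shown from the RefSeq promoter table of build GRCm38.p6. That table held 33 of the 38 tested genes. These 4 genes were picked by an unadjusted limma p under 0.05 in these same data, and none of them was called. The windows lie at chr16:72662899-72663148 on the plus strand for Robo1 and, on the minus strand, at chr8:8661243-8661492 for Efnb2, chr5:84417383-84417632 for Epha5 and chr13:51756684-51756933 for Sema4d, whose most upstream of 3 listed starts is shown. Capitals mark the GC box GGGCGG, the CCAAT box CCAAT and the cyclic AMP response element TGACGTCA on either strand. No array measurement was made at these sites.

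Robo1: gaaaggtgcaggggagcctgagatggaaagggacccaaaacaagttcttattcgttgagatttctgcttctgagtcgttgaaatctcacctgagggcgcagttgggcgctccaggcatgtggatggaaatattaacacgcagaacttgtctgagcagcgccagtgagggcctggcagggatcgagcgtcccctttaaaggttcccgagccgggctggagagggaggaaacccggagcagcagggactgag
Efnb2: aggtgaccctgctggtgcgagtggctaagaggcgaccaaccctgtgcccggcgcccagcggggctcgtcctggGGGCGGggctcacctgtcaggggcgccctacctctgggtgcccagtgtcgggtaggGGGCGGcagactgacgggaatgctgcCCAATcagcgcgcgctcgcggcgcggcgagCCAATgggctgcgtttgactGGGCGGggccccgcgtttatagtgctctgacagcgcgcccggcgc
Epha5: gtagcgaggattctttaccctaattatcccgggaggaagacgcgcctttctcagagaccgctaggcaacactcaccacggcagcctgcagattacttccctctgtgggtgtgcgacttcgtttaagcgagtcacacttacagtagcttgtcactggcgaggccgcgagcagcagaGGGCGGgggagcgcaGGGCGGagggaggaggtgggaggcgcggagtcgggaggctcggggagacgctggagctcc
Sema4d: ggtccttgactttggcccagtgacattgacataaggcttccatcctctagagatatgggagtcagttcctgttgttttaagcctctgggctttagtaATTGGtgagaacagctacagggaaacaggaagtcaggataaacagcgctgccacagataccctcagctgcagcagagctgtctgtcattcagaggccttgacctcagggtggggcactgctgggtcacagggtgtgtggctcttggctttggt

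The Efnb2 window held 3 GC boxes and 2 CCAAT boxes, that of Epha5 2 GC boxes, the Sema4d window shown 1 CCAAT box, and the Robo1 window none of the 3 motifs. The other Sema4d starts held none of them at one, and 1 GC box and 2 CCAAT boxes at the most downstream. Over all 32851 windows of this length in the table, 32.7% held a GC box, 33.8% a CCAAT box and 1.55% the cyclic AMP response element, which was in none of the windows of the 4 genes. None of these 3 motifs was shared by all 4 genes.

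Among the ligands, 4 of the 7 class 3 semaphorin genes were tested. These are secreted proteins, and Sema3c, which binds neuropilins and plexins, measured 9.27, 9.18 and 9.21 in sham and 9.16, 8.81 and 9.01 in TAC. The groups were only just apart, by the step from sham B to TAC A. The difference was -0.23 (SE 0.11, adjusted p = 0.556), and -0.13 without TAC B.

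Sema3b differed by -0.10 (SE 0.11) on its brightest probe set, Sema3g by -0.06 (SE 0.16) and Sema3e, the ligand of plexin-D1, by 0.05 (SE 0.14). The probe sets of Sema3b did not run together. A dimmer one measured 4.79, 4.45 and 4.37 in sham and 5.53, 5.22 and 4.90 in TAC. All TAC arrays lay above all sham arrays there, with a difference of 0.68 (SE 0.19, adjusted p = 0.516), while the dimmest tested one was at -0.09 (SE 0.09) with all TAC arrays below all sham arrays. This dimmer probe set of Sema3b had the largest higher value among the 60 tested probe sets, and was singled out after its values were seen.

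Sema3a, the best known repellent of sympathetic axons, was under the floor on its 3 probe sets, at most 2.72 on any array. Sema3f, which acts through Nrp2, reached at most 3.01. Sema3d had a mean of 3.82 and reached 4.52 on its highest array.

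Of the 13 genes of class 4 to 7 semaphorins, most of them membrane proteins, 6 were tested. Sema4b measured 5.75, 6.34 and 5.76 in sham and 5.76, 4.74 and 5.79 in TAC. Only TAC B was low, and without it the difference moved from -0.52 (SE 0.32) to -0.17, while without sham B it was -0.32. Sema4f differed by -0.13 (SE 0.09) and Sema4a by -0.03 (SE 0.15). Sema4c, a ligand of plexin-B2, was at 0.17 (SE 0.14), and Sema6d, a ligand of plexin-A1, at 0.05 (SE 0.12).

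Sema7a, a membrane-anchored ligand of plexin-C1, was under the floor at a mean of 3.45 and measured 3.64, 2.23 and 3.72 in sham and 3.72, 3.69 and 3.68 in TAC, so that only sham B stood apart. Sema6a was under it at a mean of 3.66 and measured 3.58, 3.10 and 3.39 in sham and 3.66, 4.70 and 3.56 in TAC, with TAC B alone over the floor. The other untested members of these classes, Sema4g, Sema5a, Sema5b, Sema6b and Sema6c, reached at most 3.57 on any array.

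The tested ephrin-B genes differed in sign. Efnb1, a transmembrane ephrin like Efnb2, measured 5.40, 5.27 and 5.19 in sham and 5.43, 5.64 and 5.39 in TAC. Sham A overlapped the TAC range, and the difference was 0.20 (SE 0.10, adjusted p = 0.573), whereas its other tested probe set was at 0.02 (SE 0.10). Efna5, a lipid-anchored ligand of EphA receptors, differed by -0.02 (SE 0.09) with an interval of -0.24 to 0.21, and Efna2 by 0.04 (SE 0.12). Efna1 lay just under the floor with a mean of 3.92, and Efna3, Efna4 and Efnb3 reached at most 3.14.

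Both measured Slits, the secreted ligands of Robo receptors, had higher means after TAC, opposite to Robo1. Slit3 measured 7.51, 7.27 and 7.51 in sham and 7.48, 7.55 and 7.90 in TAC, so that only TAC C stood clearly above the sham range. The difference was 0.21 (SE 0.14, adjusted p = 0.634) for Slit3 and 0.15 (SE 0.14, adjusted p = 0.724) for Slit2, whose groups overlapped. Single arrays moved both: Slit3 was at 0.08 without TAC C and 0.13 without sham B, and Slit2 at 0.05 without sham C. Without sham A, Slit2 was at 0.28 with an unadjusted limma p of 0.042 (adjusted p = 0.515). Slit1, Ntn3 and Ntn5 were under the floor, at most 2.58 on any array. Netrin 1 (Ntn1), the ligand of Dcc and Unc5 receptors, differed by -0.06 (SE 0.08) and netrin 4 (Ntn4), a basement membrane protein, by 0.19 (SE 0.22). Ntn4 was highest on TAC B at 7.08, against 6.24 to 6.68 on the other 5 arrays, and its difference was -0.03 without TAC B, 0.08 without sham B, 0.29 without sham C and 0.39 without TAC C.

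No receptor of semaphorins separated the groups on its brightest probe set. Of the 8 tested plexins, the signalling receptors of semaphorins, 3 had a higher and 5 a lower mean, with differences of -0.09 to 0.19 and a median of -0.02. Plxnb2, a receptor of class 4 semaphorins, was at 0.19 (SE 0.14, adjusted p = 0.654) and Plxna2, a partner of neuropilins, at -0.09 (SE 0.10, adjusted p = 0.749). Plxnc1, the receptor of Sema7a, was at 0.01 (SE 0.13) and Plxnd1, the receptor of Sema3e, at -0.04 (SE 0.11). Plxna4, which relays Sema3a signals with Nrp1, was at 0.05 (SE 0.24), with TAC A at 9.46 and TAC B at 8.57 on either side of the sham range of 8.90 to 9.24. Plxna1 was at -0.03 (SE 0.14), Plxna3 at -0.09 (SE 0.14) and Plxnb3 at -0.0049 (SE 0.17), all with overlapping groups. Plxnb1, the high-affinity receptor of Sema4d, was under the floor on its 2 probe sets, at most 3.58 on any array, as was the antisense gene Plxna4os1, at most 2.64.

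Neuropilin 1 (Nrp1), the binding receptor of Sema3a and also of vascular endothelial growth factor, measured 11.15, 10.99 and 11.07 in sham and 11.14, 10.45 and 10.86 in TAC. TAC A lay within the sham range and TAC B far below it. The difference was -0.25 (SE 0.18, adjusted p = 0.649), and -0.07 without TAC B. The other 3 tested probe sets of Nrp1 were at -0.25, -0.48 and -0.20, the one at -0.48 with groups that did not overlap (adjusted p = 0.572). Neuropilin 2 (Nrp2), the receptor of Sema3f, was at -0.05 (SE 0.15), with its other 2 tested probe sets at -0.08 and -0.07.

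Of the 13 Eph receptor genes on the array 5 were tested, and each had a lower mean after TAC. Ephb3, a receptor of ephrin-B ligands, measured 4.16, 4.60 and 4.06 in sham and 4.02, 3.54 and 4.02 in TAC. The groups did not overlap, but the values lay at the floor, TAC A and C were within 0.1 of sham C, and the TAC mean of 3.86 was under it. The difference was -0.41 (SE 0.19, adjusted p = 0.556), a 1.33-fold lower level, or 1.21-fold with TAC set at the floor, and it was -0.25 without sham B and likewise -0.25 without TAC B. Epha7 differed by -0.10 (SE 0.19). Epha10 and Ephb6, which lack kinase activity, were at -0.08 (SE 0.08) and -0.03 (SE 0.08). The 8 untested ones, Epha1, Epha2, Epha3, Epha4, Epha6, Epha8, Ephb1 and Ephb4, reached at most 3.33 on any array.

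On their brightest probe sets the 4 tested receptors of netrins each had a lower mean after TAC, with groups that overlapped for all but Unc5b. Unc5c, a repulsive netrin receptor, measured 7.45, 7.89 and 7.75 in sham and 7.47, 6.82 and 7.61 in TAC. TAC B alone stood outside the sham range, and the difference was -0.40 (SE 0.23, adjusted p = 0.600), or -0.16 without TAC B. Unc5b differed by only -0.06 (SE 0.07) although its groups did not overlap, with sham arrays at 4.61 to 4.66 and TAC arrays at 4.56 to 4.60. Its other tested probe set was at 0.09. Unc5b lay near the floor of 4. With no floor, where dimmer genes enter, 37.3% of all genes lay apart on the lower side, against 9.09% with it. Unc5a was at -0.02 (SE 0.24), with TAC B lowest at 5.61 and TAC C highest at 6.60. Unc5d was under the floor.

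Dcc, the attractive netrin receptor, measured 6.90, 6.25 and 6.54 in sham and 6.53, 5.65 and 6.48 in TAC on its brightest probe set. Only TAC B lay below the sham range, and the difference of -0.34 (SE 0.28, adjusted p = 0.682) was -0.06 without it. The other tested probe set of Dcc measured 6.77, 6.23 and 6.49 in sham and 5.77, 5.23 and 6.08 in TAC. There every TAC array was below every sham array, with a difference of -0.80 (SE 0.24, adjusted p = 0.516). No other of the members' 60 tested probe sets had so low a difference, and it was singled out after its values were seen.

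**Figure D3:**
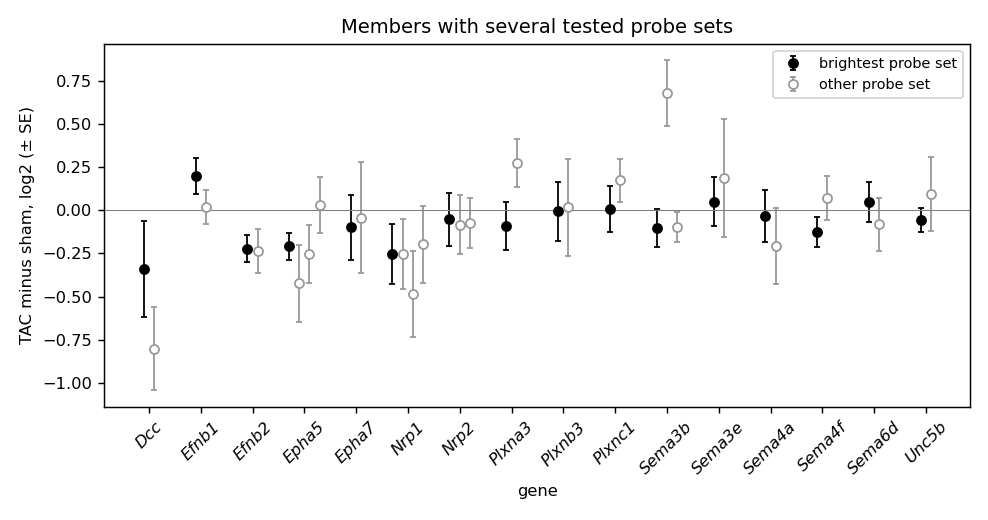
TAC minus sham difference in log2 intensity with limma's standard error (y axis) for each tested probe set of the 16 genes (x axis) that had several, the brightest in black. Nrp1 and Nrp2 lie below 0 on each probe set, while the probe sets of Sema3b span -0.10 to 0.68 and those of Dcc -0.80 to -0.34.

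Over the 16 members with several tested probe sets, 15 of the 22 dimmer probe sets had the same sign as the brightest. Probe sets of one gene read different stretches of its transcripts, and 3 of the 38 brightest ones, for Sema4f, Sema4a and Plxnb3, carry a suffix of sets whose probes can match further transcripts. Plxna3 was at -0.09 and 0.27 on its 2 sets, and Sema4f at -0.13 and 0.07. For Efnb2, Nrp1, Nrp2, Dcc, Epha7 and Sema4a each tested set gave a lower mean after TAC, and for Efnb1, Plxnc1 and Sema3e each gave a higher one.

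The members varied more between TAC than between sham arrays. The median SD over the 38 genes was 0.12 in sham and 0.19 in TAC, beside 0.12 and 0.13 over all genes tested, and 24 members (63.2%, against 51.4% of all genes) had the larger SD in TAC. Most of the low values were on TAC B. It was the lowest of the 6 arrays for 21 members (55.3%, against 22.7% of all genes) and lay below every sham array for 24 (63.2%, against 30.5%). TAC A lay below every sham array for 10 members (26.3%, against 24.1%) and TAC C for 14 (36.8%, against 24.4%).

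**Figure D4:**
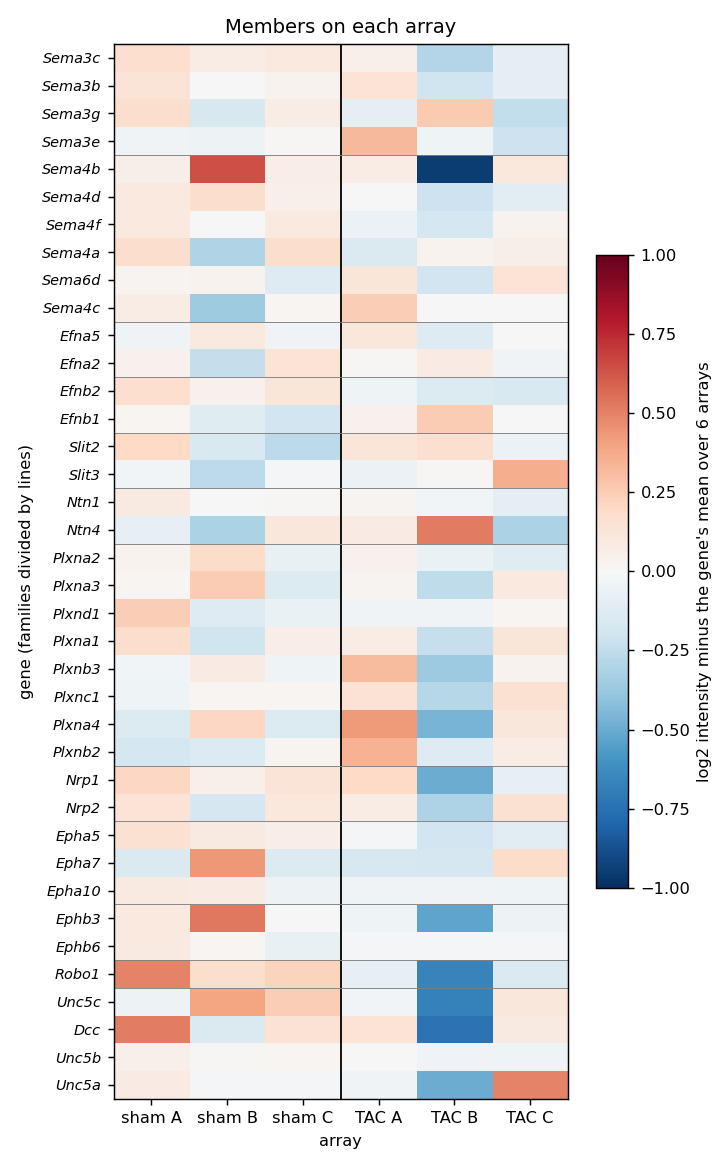
Log2 intensity of each tested gene (rows, by family) on each array (columns) minus that gene's mean over the 6 arrays, blue for lower and red for higher. The TAC B column is the bluest, with a median of -0.17 over the 38 genes, against -0.0009 to 0.08 on the other 5 arrays.

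Without TAC B, 22 of the 38 members had a lower mean (57.9%, against 44.8% of all genes) and their median difference was -0.03. At an unadjusted p under 0.05, Robo1 was then the only one with a lower mean (2.49% of all genes) and Plxnb2 the only one with a higher mean (4.27%). The same 7 members lay apart on the lower side, where 13.4% of all genes then did. This was fixed in advance, as leaving out an array cannot make separate groups overlap. Plxnb2, Plxnc1 and Sema6d then lay entirely above the sham arrays, as did 14.5% of all genes. Their differences were then 0.31, 0.15 and 0.15. The glial, vessel and fat marker values given above also differed on TAC B, and their part in the members' values was not tested.

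Guidance signals are carried inside the axon by collapsin response mediators, MICAL enzymes and small GTPases, and these genes did not pass the test either. Of 17 tested mediator and MICAL genes, 2 (11.8%) had a higher and 1 (5.88%) a lower mean at an unadjusted p under 0.05. Over all genes tested these shares were 5.43% and 3.32%, and the list median was 0.03. Mical1, an enzyme that takes actin filaments apart downstream of plexins, measured 5.79, 5.97 and 5.34 in sham and 6.16, 6.22 and 6.33 in TAC. All TAC arrays lay above all sham arrays, at a difference of 0.54 (SE 0.17, adjusted p = 0.516). Of this list 11.8% lay apart on the higher side, against 8.78% of all genes, and 17.6% on the lower, against 9.09%. Dpysl4, a collapsin response mediator, was at 0.50 (SE 0.17, adjusted p = 0.542), and Crmp1, another collapsin response mediator, at -0.24 (SE 0.09, adjusted p = 0.546).

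Of 42 tested GTPases, exchange factors and kinases, 0 had a higher and 1 (2.38%) a lower mean at that p, against 5.43% and 3.32% of all genes. The 1 was Rras, a target of plexin signalling, at -0.19 (SE 0.08, adjusted p = 0.547). The list median of 16 tested secondary receptors and adhesion partners was -0.12. At that p, 0 of them were on the higher and 2 (12.5%) on the lower side, against the same shares of all genes. These were Ntng1, a netrin-related membrane protein, at -0.43 (SE 0.15, adjusted p = 0.542), and Rgmb, a ligand of neogenin, at -0.24 (SE 0.10, adjusted p = 0.548). The groups did not overlap for either. Of this list 18.8% lay apart on the lower side, against 9.09% of all genes, and 6.25% on the higher, against 8.78%. The intensities of this list summed to 30949 to 31309 in sham and to 32466, 26206 and 31640 in TAC A, B and C.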

How the data were processed

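Gene expression was measured on Affymetrix arrays, 1 per mouse, in stellate ganglia of 3 sham and 3 TAC mice. The deposited values are linear intensity values of probe sets, which the submitters' processing notes trace to GCRMA. That method corrects background by probe sequence, normalizes between arrays and summarises probes. Neither version nor settings of it are given in the labels, and the authors' exact calls are not known here. GCRMA compresses values near background, so folds of dim genes are uncertain.

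Values were log2-transformed here without a pseudocount. The 64 control probe sets and those with a mean log2 under 4 were left out, which kept 17550 of 45101. Symbols came from GEO's platform annotation, only from probe sets with 1 symbol, and all 69 member symbols were in the RefSeq gene table of GRCm38.p6. TAC and sham were compared with limma 3.58.1 in R 4.3.3 (lmFit, eBayes, two-sided, Benjamini-Hochberg over all probe sets tested, threshold 0.05), and the script was tested on simulated data. SE are limma's moderated ones; intervals are 95%. Precision is limited by having 3 arrays a group.

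The members, lists and tests were chosen with earlier results of these data known. Named are members with an unadjusted p under 0.05 or groups that do not overlap and the 2 of smallest p in each family, 24 in all; other members are given by their difference, and the probe sets and arrays singled out were chosen after their values were seen. Alternatives were other floors, quantile normalization, array weights, a variance trend, the mean of a gene's probe sets, the title letter as a block, muscle and brown fat scores as covariates and arrays left out.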

Additional observations from a re-analysis of the deposited data

How the results depend on the processing

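The number of members called was 0 under each alternative run, and that of all probe sets was 0 except with 1 array left out (0 to 1, the 1 without TAC B and without TAC C). The members' median difference was below 0 throughout, at -0.10 with quantile normalization (all genes -0.02) and -0.09 to -0.03 with 1 array left out (all genes 0.01 to 0.03). With no floor it was -0.04, beside -0.03 over all genes. Members with a lower mean at an unadjusted p under 0.05, 4 in the report, numbered 9 of 69 with no floor, where 12.6% of all genes did so. They numbered 1 with the title letter as a replicate block (2.64% of all genes) and 1 without sham C and TAC B (2.13%). With the muscle score the only 1 was Ephb3, none of the 4 (2.7% of all genes). With 1 array left out they numbered 0 to 6 (2.24% to 3.88%). On the higher side they numbered 1 with the muscle score (Sema4c, 6.21% of all genes) and 1 without sham C and TAC B (Plxnb2, 2.99%). With 1 array left out they numbered 0 to 1 (3.5% to 6.36%), the 1 being Slit2 without sham A and Plxnb2 without TAC B. Members lying apart on the higher side numbered 1 with quantile normalization (Efnb1), 3 without sham C and TAC B and 0 to 3 with 1 array left out, where 7.08%, 19.2% and 12.5% to 17.1% of all genes did so. Those apart on the lower side, 7 in the report, numbered 25 of 69 with no floor, where 37.3% of all genes did so. With 1 array left out they numbered 7 to 10, where 12.8% to 14.8% did, and could not fall below 7. Over all probe sets tested, arrays with the same letter did not deviate together (correlations 0.084, -0.0031 and -0.17 for A, B and C). The labels do not say what the letters stand for, and a batch or pairing behind them was not tested.

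Of the 24 named genes, signs turned for 7, Ntn4 (0.19 in the report) among them. The other members were followed only without TAC B. There Plxna1 (0.084), Plxna3 (0.016), Plxnb3 (0.17) and Unc5a (0.22), each below 0 in the report, were above 0. Efna2 was at -0.012 with quantile normalization and -0.047 with array weights; array weights also turned Efna5 (0.027), Ntn4 (-0.080) and Nrp2 (0.013). The mean of all probe sets turned Sema3b (0.16) and Unc5b (0.019). Leaving out sham C and TAC B put Nrp2 at 0.13 and Efna5 at 0.022, and the muscle score put Nrp2 at 0.067. With 1 array left out the ranges were -0.075 to 0.045 for Efna5, -0.069 to 0.12 for Efna2, -0.025 to 0.39 for Ntn4, -0.15 to 0.091 for Nrp2 and -0.071 to 0.011 for Ephb6. The causes were not tested.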
